A study of Danio rerio with 6 samples.

Results

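Interferon regulatory factors (IRFs) are transcription factors that share an N-terminal DNA-binding domain and recognise short interferon-response elements in the promoters and enhancers of immune genes. In vertebrates, IRF3, IRF5 and IRF7 are switched on by phosphorylation downstream of receptors for microbial nucleic acids and induce interferons. IRF9 is part of the complex that carries the interferon signal to the nucleus, IRF1 and IRF2 compete for the same elements, and IRF4 and IRF8 act mainly in blood cells, where they bind DNA together with partners such as PU.1 and BATF and guide the development of lymphocytes, macrophages and dendritic cells. The zebrafish genes examined here were *irf1b*, *irf2*, *irf3*, *irf4a*, *irf4b*, *irf5*, *irf7*, *irf8*, *irf9* and *irf10*. These 10 genes were picked by name out of the 32105 genes of the count table, with earlier results of these data known. All 10 passed the filter on low counts. The name *irf2* matched the gene that the reference now calls *irf2b* (ENSDARG00000040465), whereas its duplicate *irf2a* is described separately.

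Expression was measured by RNA-seq in fish labelled as whole body at 5 dpf. The 3 mutant libraries, replicates 1 to 3, came from fish homozygous for the *ikzf1* allele fr105. This allele is a CRISPR-induced deletion with a frameshift within the gene for the Ikaros transcription factor. The truncated protein it encodes keeps only the first zinc finger. The 3 control libraries, replicates 4 to 6, came from wild-type siblings. Both groups were labelled as a mixture of wild-type strains, the methods give 3 individual fish per genotype, and the mutants represent one allele in one line, in which every tissue of the fish carries the lesion.

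Library totals ranged from 34759504 to 38383935 counts for the mutants and from 38177112 to 39404324 for their siblings. The targeted gene itself, *ikzf1*, had 53145, 44700 and 29104 counts in the fr105 fish against 8746, 6776 and 10579 in siblings. A count over the whole gene does not show the deletion. Markers of several body tissues had few counts. No matched skeletal muscle gene exceeded 67 counts in any library, no lens gene 6, no brain gene 14, no larval globin gene 17 and no liver gene 242, whereas the skin gene *icn* had 34095 to 61254 counts and the kidney tubule gene *slc20a1a* 4071 to 8433. The other genes of the skin and kidney tubule lists had at most 248, and the adult globin gene *hbaa1* had between 225903 and 653758. The neutrophil markers together took 3.595% to 5.049% of all counts in mutants and 2.353% to 3.629% in wild type. The labels whole body and 5 dpf are kept here. The source of the RNA and the age of the fish were not tested. In bulk RNA, fewer cells of a type and less RNA per cell cannot be told apart, and this holds for every difference given below.

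Among the 10 *irf* genes, *irf4b*, *irf8*, *irf4a*, *irf7* and *irf5* were lower in fr105 mutants, by 8.48-fold, 2.43-fold, 2.79-fold, 1.44-fold and 1.304-fold, respectively. Thus 5 of 10 genes had an adjusted p under 0.05 by the quasi-likelihood test of edgeR, all of them lower, and the other 5 did not. Of the 16630 genes tested, 19.8% passed in either direction, 8.76% as lower and 11% as higher. In 6 of 10 *irf* genes the libraries of both genotypes did not overlap, which was the case for 41.9% of all genes tested (20.6% lower and 21.3% higher in mutants). The median log2 fold change was -0.27 over the 10 genes and -0.0048 over all genes tested. Leaving out mutant replicate 3 reduced the number of *irf* genes called to 3, namely *irf4a*, *irf4b* and *irf8*. Calls over all genes also fell in that fit, to 1927 of 17152 tested, from 3291 of 16630 with every library.

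**Figure D1:**
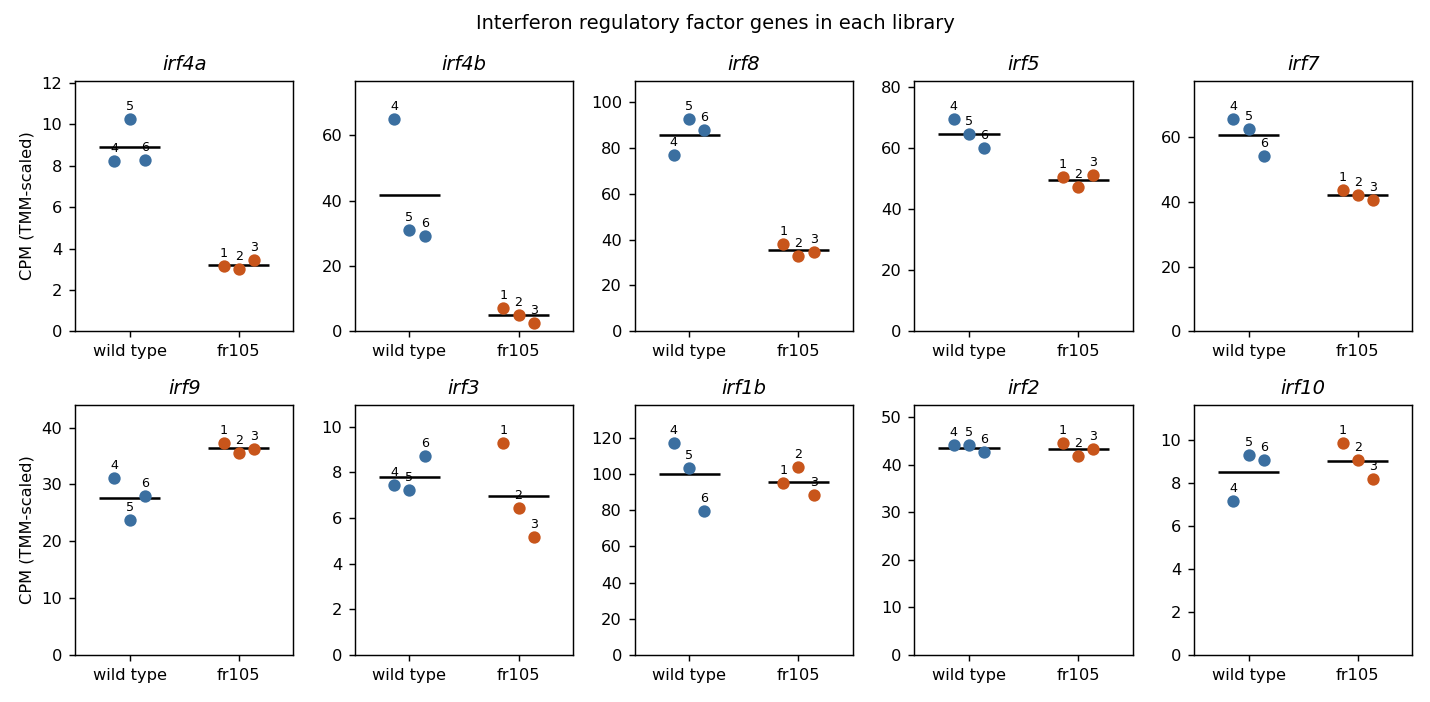
Level of each *irf* gene in every library, in CPM (counts scaled to library size by TMM), on axes that start at 0; points carry the replicate number and bars mark the group means (n = 3 per genotype). The genotypes are separated for *irf4a*, *irf4b*, *irf8*, *irf5* and *irf7*, where mutants are lower, and for *irf9*, where mutants are higher, and overlap for the remaining genes.

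The lymphoid and myeloid factors of the IRF4 and IRF8 branch showed the largest differences. *irf4b* (ENSDARG00000055374), one of the zebrafish counterparts of mammalian IRF4, a factor required for plasma cells and for several effector T cell programmes, had 270, 180 and 92 counts in the mutants. In wild type, the same gene had 2484, 1191 and 1167 counts. Every mutant library thus lay below every wild-type library, and the lowest wild-type level was 4.13 times the highest mutant level. Scaled to library size by TMM (CPM), the mean was 4.90 ± 2.21 CPM in mutants and 41.6 ± 20.2 CPM in siblings (SD, n = 3). The log2 fold change was -3.08 (SE 0.43, 95% interval -4.07 to -2.10; Benjamini-Hochberg adjusted p = 0.00213 by edgeR). Only 86 of the tested genes, or 0.517%, had a larger fall.

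The spread of *irf4b* within each genotype was wide, with replicate 4 standing above the other 2 wild-type fish at 64.9 CPM against 30.9 and 29.1 CPM. Without replicate 4 the log2 fold change was -2.61, still past the threshold. Leaving out each library in turn gave -3.44 to -2.61 and edgeR adjusted p values of 0.00286 to 0.0126.

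The paralogue *irf4a* (ENSDARG00000006560) had 120, 109 and 120 counts in the fr105 fish against 315, 395 and 332 in siblings. Its levels were tight within each genotype, at 3.20 ± 0.21 CPM and 8.92 ± 1.15 CPM, respectively (SD, n = 3). The log2 fold change was -1.48 (SE 0.16, 95% interval -1.85 to -1.10; edgeR adjusted p = 0.000699). The balance of the 2 paralogues was also compared. For each count on *irf4a* there were 2.25, 1.65 and 0.767 counts on *irf4b* in the mutants, and 7.89, 3.02 and 3.52 in wild type, so that the ratio was lower in each mutant than in any wild-type fish (exact permutation test, two-sided, p = 0.1, which is the lowest value 3 against 3 can give).

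*irf8* (ENSDARG00000056407) encodes a factor that zebrafish need for the formation of macrophages and that mammals also use in dendritic cells and B cells. It collected 1462, 1186 and 1216 counts in the fr105 fish against 2941, 3567 and 3516 in siblings. No library of either genotype came near the other group, the lowest wild-type level being 2.01 times the highest mutant level. The means were 35.3 ± 2.64 CPM and 85.7 ± 8.06 CPM (SD, n = 3), and the log2 fold change was -1.28 (SE 0.11, 95% interval -1.53 to -1.03; edgeR adjusted p = 0.000207). Of the *irf* genes this one had the smallest adjusted p, and without any single library its log2 fold change stayed between -1.35 and -1.22.

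The factors that relay nucleic acid sensing showed smaller differences. *irf7* (ENSDARG00000045661), which in mammals drives the bulk of type I interferon production, had 1670, 1519 and 1414 counts in the fr105 fish against 2508, 2403 and 2175 in siblings. Scaled levels were 42.1 ± 1.58 and 60.7 ± 5.82 CPM (SD, n = 3), with a log2 fold change of -0.53 (SE 0.10, 95% interval -0.76 to -0.29; edgeR adjusted p = 0.0101). The groups did not overlap, but without mutant replicate 3 the adjusted p was 0.0523.

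*irf5* (ENSDARG00000045681), which in mammals acts downstream of Toll-like receptors in macrophages and B cells, had 1930, 1703 and 1785 counts in the fr105 fish against 2659, 2494 and 2401 in siblings. Mutants reached at most 51.1 CPM and wild-type fish at least 59.9 CPM. The means were 49.6 ± 1.99 and 64.7 ± 4.80 CPM (SD, n = 3), and the log2 fold change was -0.38 (SE 0.095, 95% interval -0.60 to -0.16; edgeR adjusted p = 0.0272). This call was the least stable of the 5, since it was kept in only 1 of the 6 fits that left out a library (edgeR adjusted p from 0.0328 to 0.0815).

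*irf3* (ENSDARG00000076251), the constitutively present sensor-activated factor of mammals, had 356, 231 and 180 counts in the fr105 fish against 285, 279 and 349 in siblings. Mutant replicate 1 was the highest and mutant replicate 3 the lowest of all 6 libraries. The log2 fold change was -0.16 with an interval of -0.68 to 0.35 (edgeR adjusted p = 0.640), so that a fall as large as that of *irf7* lies inside this interval.

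*irf9* (ENSDARG00000016457), the DNA-contacting subunit of the interferon-activated STAT complex, was the only member whose mutant libraries all lay above the wild-type libraries. It had 1428, 1275 and 1264 counts in the fr105 fish against 1190, 911 and 1123 in siblings. Expressed as CPM this was 36.3 ± 0.93 against 27.6 ± 3.74 (SD, n = 3), without overlap. The log2 fold change was 0.40 (SE 0.12, 95% interval 0.12 to 0.67) and edgeR gave an adjusted p of 0.0501, just outside the threshold. With DESeq2 the adjusted p was 0.0266, and its range over 8 alternatives with every library retained was 0.0266 to 0.0662.

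The remaining factors overlapped between genotypes. *irf1b* (ENSDARG00000043249), a counterpart of the interferon-induced activator IRF1, had 88.7 to 103.9 CPM in mutants, inside the range of 79.9 to 117.3 CPM in wild type, and a log2 fold change of -0.06 (95% interval -0.40 to 0.28; edgeR adjusted p = 0.796). For *irf2*, known in mammals as an antagonist of IRF1, the value was -0.01 (95% interval -0.21 to 0.19; edgeR adjusted p = 0.942), with all 6 libraries between 41.8 and 44.6 CPM. *irf10*, a member present in fish and birds but lacking in human and mouse, had 8.19 to 9.87 CPM in mutants and 7.16 to 9.29 CPM in wild type and gave 0.09 (95% interval -0.27 to 0.45; edgeR adjusted p = 0.717). The narrow interval of *irf2* excludes a change as large as that of *irf5*, whereas those of *irf1b* and *irf10* reach further.

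**Figure D2:**
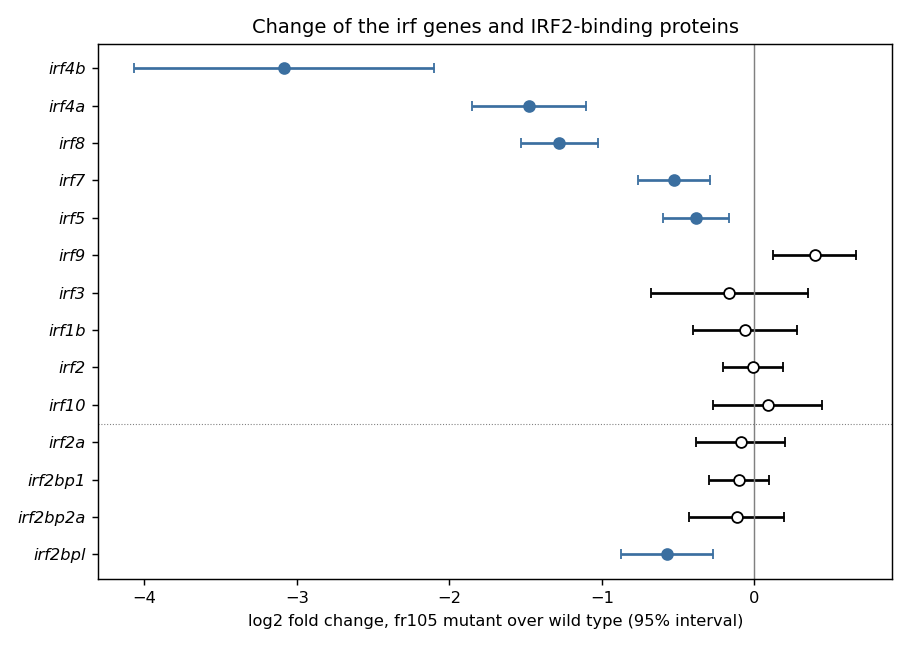
Log2 fold change of each *irf* gene (mutant over wild type, x axis) with its 95% interval; below the dotted line are *irf2a* and the IRF2-binding proteins. Filled points had an edgeR adjusted p under 0.05. The interval of *irf4b* (-4.07 to -2.10) lies wholly below those of *irf4a* and *irf8*, and that of *irf9* starts at 0.12.

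Of other *irf* genes in the table, *irf1a* had 3 to 15 counts per library and did not pass the filter on low counts. *irf2a* had a log2 fold change of -0.09 (edgeR adjusted p = 0.647). Among the proteins that bind IRF2, *irf2bp1* and *irf2bp2a* did not pass the test, with log2 fold changes of -0.10 and -0.12. The related *irf2bpl* was lower in mutants, at 9.64 ± 1.17 CPM against 14.4 ± 0.48 CPM in wild type (SD, n = 3; log2 fold change -0.57, SE 0.13; edgeR adjusted p = 0.0197), a call that was lost without mutant replicate 1, mutant replicate 3 or wild-type replicate 5.

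Summed over the 10 genes, the *irf* level was 339, 327 and 314 CPM in mutants and 492, 448 and 407 CPM in wild type. Each mutant was thus below each wild-type fish, and the mean was 27.3% lower (two-sided exact permutation test, p = 0.1). Leaving aside *irf4b* and *irf8*, a choice made after the data were seen, the sums were 286.5 ± 8.81 and 322.0 ± 29.9 CPM (SD, n = 3), which overlapped (exact p = 0.2). The composition of the family also differed. *irf8* took 10.81% ± 0.641 of the *irf* counts in mutants and 19.3% ± 3.19 in wild type, and *irf4b* 1.48% ± 0.623 and 9.08% ± 3.57 (SD, n = 3). The converse held for *irf1b*, whose share was 29.4% ± 2.05 in mutants and 22.2% ± 2.25 in wild type, and for *irf9*, with 11.1% ± 0.356 and 6.16% ± 0.813 (SD, n = 3). Shares add up to a fixed total, and *irf1b*, *irf2* and *irf10* had larger shares in mutants although their own levels overlapped. Their log2 fold changes were only -0.06, -0.01 and 0.09. In 8 of the 10 genes the shares did not overlap, *irf3* and *irf5* being the exceptions, and the 8 exact permutation p values of 0.1 became 0.125 after adjustment over the 10 genes. Because of the fixed total, this count of 8 is not independent of the falls of *irf8* and *irf4b*.

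**Figure D3:**
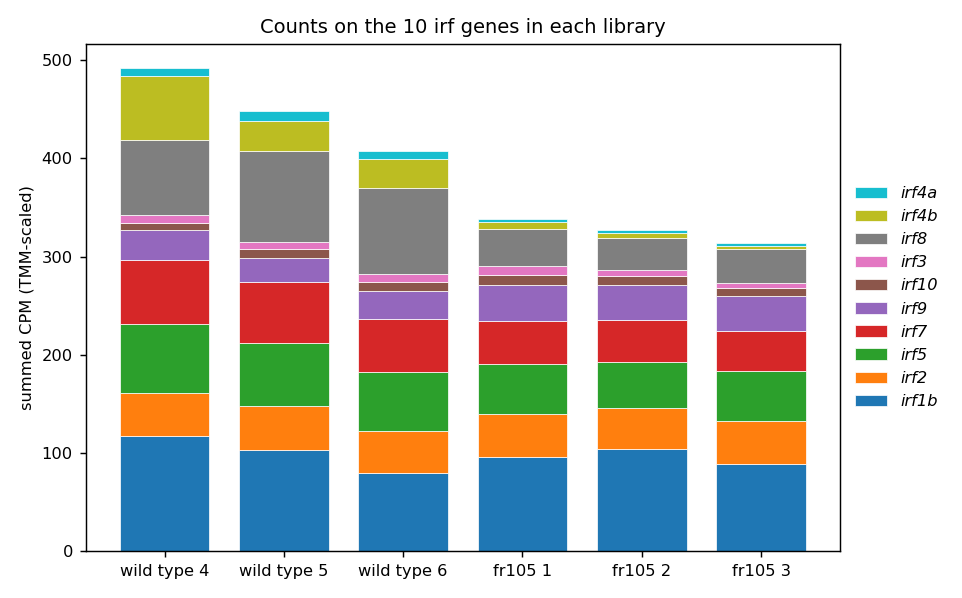
Summed CPM of the *irf* genes in each library, with 1 bar per library from 0 and 1 colour per gene; heights of different genes are not corrected for gene length. The wild-type bars reach 407 to 492 CPM and the mutant bars 314 to 339 CPM, with the segments of *irf8* and *irf4b* shrinking most.

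Markers of blood cell types differed in direction between lists. Their counts stand beside 8.76% lower and 11% higher among all genes tested, and the lists were chosen with earlier results of these data known. In the list of B cell markers, 4 of 6 genes were lower in mutants (*cd79a*, *cd79b*, *pax5* and *cd37*) and none was at 0. *cd22* and *blnk* were not called, and the median log2 fold change of the list was -2.29. Its summed level was 107.5 to 179.2 CPM in mutants and 219.4 to 318.9 CPM in wild type. This sum does not weigh the markers evenly, as a single gene reached 5093 counts in a library. The call of *pax5* was lost without mutant replicate 2 or 3. Of the T cell markers, 3 of 7 were lower (*lck*, *ccr9a* and *runx3*, the last lost without mutant replicate 1 or 3). Their list summed to 126 to 196 CPM in mutants and 289 to 326 CPM in wild type. A single gene of the list reached 10205 counts in a wild-type library, most of the sum there, so the sum does not weigh the markers evenly. The authors also place *ccr9a* in their B cell profile, and *cd247l*, *zap70*, *cd4-1* and *cd8a* were not called. Of the 8 macrophage markers matched, none was lower and 3 were higher (*mpeg1.2*, *csf1ra* and *marco*), and their sums overlapped, at 1369 to 1626 CPM in mutants and 1255 to 1465 CPM in wild type. Higher calls were also made for 1 of 5 neutrophil markers (*mpx*, kept only without wild-type replicate 6), 2 of 5 erythroid markers (*gata1a* and *hbba1*, both kept only without wild-type replicate 4 or 5) and 2 of 3 thrombocyte markers. The part that cell numbers play in the fall of *irf4a*, *irf4b* and *irf8* was not tested.

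Within the genotypes, *irf4b* and the B cell markers were compared library by library. Mutant replicate 1 had the most and mutant replicate 3 the fewest counts on *irf4b*, and this order was shared by 4 of the 6 B cell markers, among them *cd79b* (191, 115 and 69 counts) and *cd37* (503, 269 and 194 counts), but not by *cd22* or *cd79a*. It was not particular to B cell markers. Levels of the T cell markers *zap70* and *cd4-1* and of *irf3*, *irf7* and *irf10* had the same order, unlike the other T cell markers and *irf* genes. Wild-type fish had another order. Replicate 4 had the highest *irf4b* level but the lowest level of 5 of the 6 B cell markers, the exception being *cd22*, which was highest there. Examples are *cd79b* (848, 1834 and 1480) and *cd37* (1755, 3722 and 2687), both of which encode surface proteins of B cells. *prdm1a*, the counterpart of the plasma cell factor Blimp-1 that IRF4 induces in mammals, had 514, 233 and 133 counts in wild type and 96, 68 and 90 in mutants, and so shared with *irf4b* its peak in replicate 4. Without that replicate its log2 fold change was -1.01 (edgeR adjusted p = 0.0683). A highest wild-type level in replicate 4 was also seen for *irf1b*, *irf5*, *irf7* and *irf9* and for the T cell markers *lck*, *cd247l* and *ccr9a*. The other *irf* genes and T cell markers did not share it. With 3 fish per genotype these orders are descriptions.

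**Figure D4:**
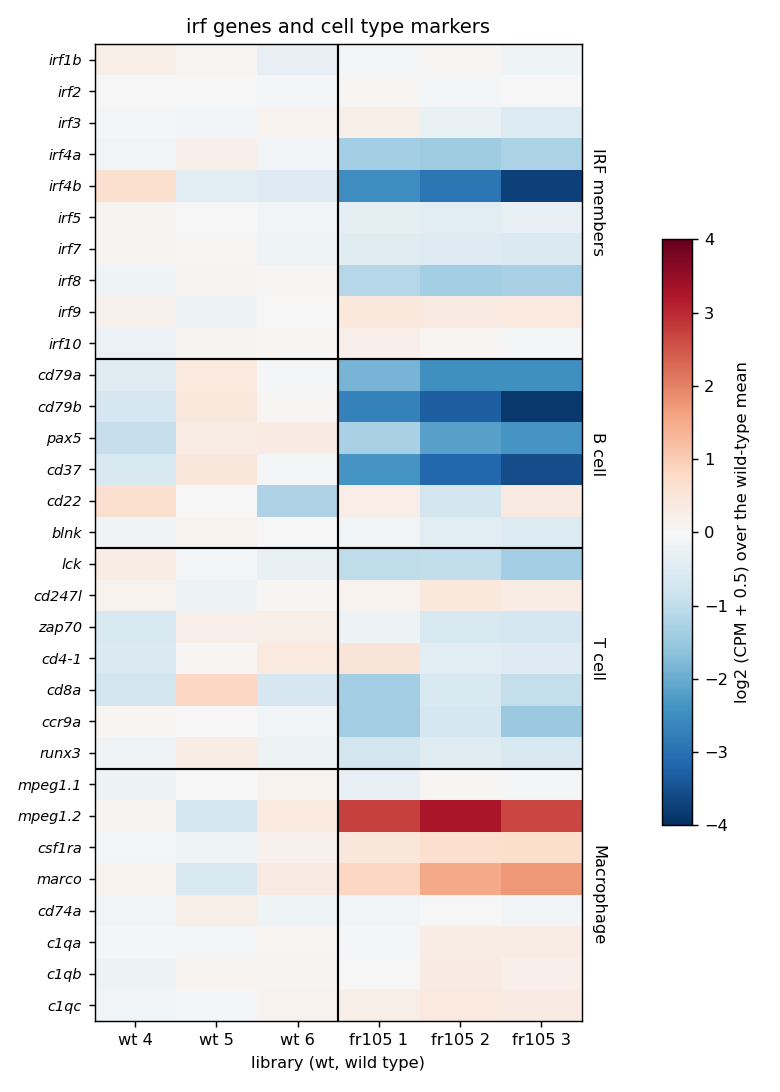
Level of the *irf* genes and of B cell, T cell and macrophage markers in each library (columns), as log2(CPM + 0.5) relative to the wild-type mean of that gene (colour scale, -4 to 4). *irf4b* is pale red in wild-type replicate 4, where *cd79b*, *pax5* and *cd37* are pale blue, and these genes are blue in all mutants, while 5 of 8 macrophage markers stay near white.

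The genes around the family were then examined as lists. These lists were drawn up with earlier results of these data known, so their shares of called genes are descriptions only. Sensors and adaptors that activate IRFs included 8 lower and 3 higher genes out of 26 tested (30.8% and 11.5%, against 8.76% and 11% of all genes tested), with a median log2 fold change of -0.37 against -0.0048 over all genes tested. *tlr7*, a receptor for single-stranded RNA in endosomes, had 12, 14 and 10 counts in the fr105 fish against 256, 429 and 227 in siblings, a log2 fold change of -4.56 (SE 0.34; edgeR adjusted p = 0.000109). *tlr9*, a receptor for DNA, had 246, 106 and 72 counts in the fr105 fish against 1038, 1893 and 1067 in siblings (log2 fold change -3.16, SE 0.43; edgeR adjusted p = 0.00206; -3.77 without mutant replicate 1). In both genes the groups were far apart, and wild-type replicate 5 was the highest library.

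The paralogues *tlr8b* and *tlr8a* moved in opposite directions, with log2 fold changes of -1.13 (SE 0.14) and 1.07 (SE 0.17), respectively. The adaptor *myd88* (-0.65), downstream of the endosomal receptors, and their chaperone *unc93b1* (-0.51) were lower. So were the kinase genes *ikbke* (-0.53) and *ikbkb* (-0.49), whose products phosphorylate IRFs in mammals. Of these, *myd88* was called with any library left out, *ikbke* was lost without mutant replicate 1 or 3, *ikbkb* without mutant replicate 1 or 2 or wild-type replicate 5, and *unc93b1* was kept only without wild-type replicate 4 or 6. The kinase gene *tbk1* had a log2 fold change of -0.35 (SE 0.10; edgeR adjusted p = 0.0506) and was not called. Higher in mutants were *sting1*, the adaptor of cytosolic DNA sensing (1.99, SE 0.25), and *tlr22*, a Toll-like receptor of fish (0.89, SE 0.16), in contrast to *cgasa*, the enzyme that produces the ligand of STING (-1.18, SE 0.25).

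Of the interferons, their receptors and the JAK-STAT relay, 1 of 18 genes tested passed, or 5.56% against 19.8% of all genes tested. This was the kinase gene *tyk2*, which was lower in mutants (log2 fold change -0.68, SE 0.11; edgeR adjusted p = 0.00469), and the median of the list was 0.11. The interferon gene *ifnphi1*, chosen after its values were seen, had 199, 105 and 151 counts in the fr105 fish against 90, 67 and 106 in siblings, nearly touching but not overlapping after scaling (log2 fold change 0.88, SE 0.27; edgeR adjusted p = 0.0561). *stat2*, a partner of IRF9, had a log2 fold change of -0.03 (edgeR adjusted p = 0.933).

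Interferon-stimulated genes comprised 1 lower and 5 higher among 37 tested, with a median of 0.18. *isg15*, a ubiquitin-like protein, had 2694, 1840 and 1398 counts in the fr105 fish against 610, 517 and 787 in siblings, a 3.30-fold difference (log2 fold change 1.72, SE 0.22; edgeR adjusted p = 0.00162). Each mutant library lay above each wild-type library. The antiviral GTPase gene *mxc* was 5.19-fold higher, although the mutants varied from 3.43 to 12.5 CPM and the difference was 3.31-fold without mutant replicate 2, and its relative *mxa* was 2.14-fold higher, a call kept only without mutant replicate 2 or wild-type replicate 6. *gbp2* and the immunoproteasome subunit gene *psmb10* rose by 0.47 and 0.55 on the log2 scale, calls kept only without mutant replicate 2 and wild-type replicate 6, respectively, while *mxd*, another relative, fell by 1.05. The other 31 did not pass the test, so that 13.5% higher in the list stood beside 11% among all genes tested.

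DNA-binding partners of IRFs included 4 lower and 4 higher genes of 22 tested, each 18.2% against 8.76% lower and 11% higher among all genes tested, with a median of -0.07. The 4 higher genes include *ikzf1*, the mutated gene, whose protein in fr105 fish keeps only the first zinc finger. Lower were *ets1*, a lymphoid ETS factor (-1.12, SE 0.15), *batf3*, which in mouse works with IRF8 in dendritic cells (-1.15, SE 0.29), *tfec*, a haematopoietic relative of MITF (-0.87, SE 0.11), and *nfkb1* (-0.53, SE 0.10). Higher were *ikzf1* itself (2.37, SE 0.23), *junba* (0.90, SE 0.17), *junbb* (0.80, SE 0.22) and *tcf3a* (0.53, SE 0.11), the last of which was not called without mutant replicate 3. The call of *batf3* was kept only without mutant replicate 1 or wild-type replicate 5, and that of *junbb* only without mutant replicate 3 or wild-type replicate 4. Neither of the PU.1 genes passed, with log2 fold changes of -0.27 for *spi1a* and 0.22 for *spi1b*, nor did *batf* (-0.17).

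Genes listed here as downstream of IRF4 or IRF8 comprised 10 lower and 6 higher of 32 tested. These were 31.25% and 18.75%, against 8.76% and 11% of all genes tested, and the median was -0.18. *cxcr5*, the chemokine receptor that leads B cells into follicles, had 19, 14 and 2 counts in the fr105 fish against 124, 295 and 159 in siblings (log2 fold change -3.95, SE 0.60; edgeR adjusted p = 0.00348). *ebf1a*, an early B cell factor, fell by 1.52 on the log2 scale (SE 0.23), *pou2af1*, a B cell coactivator, by 2.97 (SE 0.50; log2 fold change -3.57 without mutant replicate 1), *prdm1a* by 1.71 (SE 0.47; kept only without wild-type replicate 6), and the transcriptional repressor *bcl6ab* by 0.95 (SE 0.15). Some genes of this list also served as markers above and are not independent of those lists. They are *pax5* (B cell), *ccr9a* (T cell) and *mpeg1.1*, *mpeg1.2*, *csf1ra* and *cd74a* (macrophage).

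Myeloid genes of the same list went both ways. *mpeg1.2*, a perforin-like gene of macrophages, had 808, 1126 and 718 counts in the fr105 fish against 116, 58 and 152 in siblings (log2 fold change 3.13, SE 0.33; edgeR adjusted p = 0.000561), whereas its neighbour in name *mpeg1.1* had a log2 fold change of -0.11 (SE 0.13; edgeR adjusted p = 0.593). The duplicated receptor genes *csf1ra* and *csf1rb* were higher (0.62, SE 0.12) and lower (-0.64, SE 0.12), respectively, and *csf3r*, the receptor of a granulocyte growth factor, was lower (-0.64, SE 0.13; not called without mutant replicate 1). Also higher were the protease gene *ctss2.2* (0.73, SE 0.11), the proto-oncogene *mycb* (1.202, SE 0.20) and the cytokine genes *il13* (2.096, SE 0.34) and *il4* (1.99, SE 0.50). Without mutant replicate 2 the value of *il4* was 1.39, and its call was kept only without mutant replicate 1 or wild-type replicate 6.

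**Figure D5:**
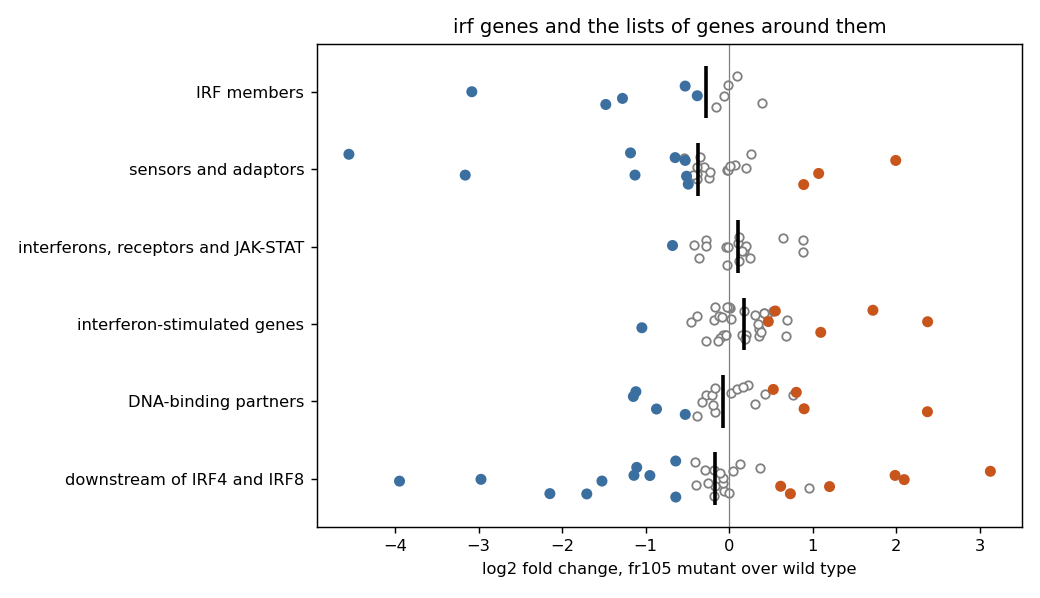
Log2 fold change (mutant over wild type, x axis) of the tested genes of the *irf* family and of each list around it; blue and orange points passed an adjusted p of 0.05 as lower and higher, open points did not, and black bars mark the medians. Medians run from -0.37 for sensors and adaptors to 0.18 for interferon-stimulated genes.

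Reads of overlapping genes may not be told apart, because the counting is not stated to have used the strand. In the gene order of the GRCz12tu assembly, *irf7* overlaps *phrf1*, *irf1b* overlaps *ddx46* and *irf3* overlaps *fra10ac1*, none of which passed the test (-0.14, -0.07 and 0.18). *irf4b* overlaps a non-coding gene that was not analysed here. The genes next to the members that fell, and to *irf9*, were also read. Near *irf9*, *ppp1cab* had a log2 fold change of 0.13, *emc9* 0.58 and *psme2* 0.37 (edgeR adjusted p = 0.409, 0.0725 and 0.0766). Near *irf4a*, *ripk1l* had a log2 fold change of -0.20 (edgeR adjusted p = 0.170). Near *irf5*, *tnpo3* had -0.09, *ccdc87* -0.57 and *pnpla8* 0.41 (edgeR adjusted p = 0.558, 0.317 and 0.109). Beside *irf4b*, *exoc2* had a log2 fold change of 0.12 and si:dkey-25e12.3 of -0.37 (edgeR adjusted p = 0.317 and 0.137), and beside *irf8*, *cox4i1* had -0.12 and *dusp22a* -0.67 (edgeR adjusted p = 0.449 and 0.156). Next to *irf7*, *hic1l* was lower by an amount close to that of *irf7* (-0.52, SE 0.15; edgeR adjusted p = 0.0491), a call kept only without mutant replicate 2 or wild-type replicate 6.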

How the data were processed

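Gene counts of 6 RNA-seq libraries, 3 from fr105 homozygotes and 3 from wild-type siblings labelled 5 dpf, were used. Per the methods, the authors aligned paired-end 75 bp reads with STAR 2.5.2b-1 to Ensembl Zv10 (GRCz10) and counted genes with featureCounts 1.6.0.1; the deposited values are raw counts, not normalized. Between 78.0% and 79.9% of the counts from 1 to 4 were even. Counting the mates of each pair separately would leave such a pattern, but the cause was not tested. Groups came from the titles. No library was treated as a duplicate, since the chi-square per gene was at least 48.0 for each pair.

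Symbols paired 26361 of the 32105 genes; RefSeq names of the GRCz12tu assembly gave neighbours, with no coordinates, and no sequences were at hand. Counts were scaled by TMM in edgeR 4.0.16 (R 4.3.3), filtered with filterByExpr (minimum count 10, total 15) and tested with the quasi-likelihood F test, two-sided, with Benjamini-Hochberg adjustment over 16630 genes and a threshold of 0.05. The standard error was taken as the size of the log2 fold change over the root of the F statistic. Exact permutation tests used the *irf4b* to *irf4a* count ratio, the summed CPM and the shares of the *irf* counts, without log transformation. Precision is given by the spread of 3 libraries per group and totals of 34759504 to 39404324 counts. In simulated counts for this comparison (16630 genes), 137 of 200 genes changed by 1.5 on the log2 scale were called, beside 9 unchanged genes. Of the 115 with a mean of at least 200 counts, 109 were called, and no call had the wrong sign. The simulation changed only these 200 genes, balanced in direction, with dispersions taken from the fit. In the data 19.8% of genes were called, so these rates may not carry over.

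The members and gene lists were chosen with earlier results of these data known. All members are named, with at most 3 genes per list and direction by adjusted p, their direct partners, and markers; *ifnphi1*, *pou2af1*, *prdm1a*, *il4*, *mycb*, *csf1ra*, *csf1rb*, *csf3r*, *cgasa*, *gbp2*, *psmb10* and *junbb* were chosen after their values were seen. Other settings tried were scaling by RLE, by the upper quartile or by library size alone, DESeq2 1.42.0, omission of the filter, a minimum mean of 50 counts, a robust fit, halved counts, leaving out each library, and an adjusted p of 0.01; an adjusted p of 0.1, and leaving out each library for genes named beyond the rule, were added after the data were seen. Of 27, 25, 46, 30 and 38 listed sensors, interferon pathway genes, interferon-stimulated genes, partners and downstream genes, 26, 22, 41, 23 and 36 were matched. Some genes that the lists hold are not reported here.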

Additional observations from a re-analysis of the deposited data

How the results depend on the processing

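Of 140 refits of the *irf* genes, 125 kept direction and side of the threshold, and so did 317 of 322 refits of the 23 genes named by rule from the lists around them; the 5 that did not concerned *mxa* and *tcf3a* with a library left out. The number of *irf* genes called was 3 without mutant replicate 3 (3 to 5 over all fits that left out a library), 3 at an adjusted p of 0.01, and 6 with DESeq2, RLE, halved counts, a robust fit or an adjusted p of 0.1, where *irf9* was added. Calls over all genes were 3291 in the main fit, ranged from 1927 to 2837 with a library left out and were 1399 at an adjusted p of 0.01. They were 4327 with DESeq2, or 26% of the genes tested, 3298 with RLE, 3319 with halved counts and 3326 with a robust fit. The number of genes tested also differed with a library left out and with halved counts. *irf9* passed the threshold with DESeq2 (log2 fold change 0.3991), RLE (0.3990), halved counts (0.3924) and a robust fit (0.3965). With a library left out, it ranged from 0.2985 to 0.4933, *irf5* from -0.4351 to -0.3271 and *irf7* from -0.6023 to -0.4682; *irf9* passed only without wild-type replicate 4, *irf5* only without wild-type replicate 6, and *irf7* in every case except without mutant replicate 3. Among members that were never called, the sign turned for *irf1b* (range -0.2009 to 0.0682) and *irf10* (-0.0194 to 0.1605) without wild-type replicate 4, *irf2* (-0.0304 to 0.0182) without mutant replicate 2 and *irf3* (-0.4271 to 0.0168) without mutant replicate 3; the cause was not tested. No scaling moved the median of all genes by over 0.1 on the log2 scale. Shares per kilobase of coding sequence were not run, as no coding lengths were used here. No paired analysis was possible because replicate numbers 1 to 3 and 4 to 6 share none. With 3 fish per genotype, the smallest difference called among the *irf* genes was the 1.304-fold fall of *irf5*.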
